A study of Rattus norvegicus with 8 samples.

Results

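In hypothalami of male Long-Evans rats, all adult, the sites on the less-read strand of their gene were examined. For every gene of the table, the reads of the 8 libraries were summed over its sites on each strand, and each site on the strand with the smaller sum was kept. This gave 3078 sites in 1875 genes, of 73922 sites in all and 65913 sites assigned to 12255 genes. They are called minor-strand sites below, and the other sites of the same genes, 23404 in number, are called major-strand sites. Another 3 genes, with 6 sites, had equal sums and were left out. The strands were chosen from the measured reads, so the smaller size of the minor-strand sums is a consequence of the rule and not a result.

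Of 8 rats, 4 controls had been kept on standard chow (0.51 kcal/g from fat), and 4 rats of the obesity group had been given free access to a high fat diet (1.71 kcal/g from fat), both for 36 days. RNA of each hypothalamus had been read by WTTS-seq, which sequences the 3′ ends of polyadenylated RNA and counts the reads at each inferred end site. Each library stood for 1 rat of an outbred strain, and the weight the rats gained is not among the values analysed here. The libraries, called control 1 to 4 and obesity 1 to 4, held 1417531 to 1957726 reads.

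All 10 hypothalamic marker genes were present in the table. Summed oligodendrocyte markers ranged from 14679 to 20197 CPM (counts scaled to the size of each library) in controls and from 10431 to 18275 in obesity, where obesity 1 was lowest. For astrocyte markers the ranges were 5844 to 13049 and 4980 to 11475 CPM, and 3 of 5 microglial markers were listed, at 61.4 to 99.5 and 22.8 to 85.9 CPM. Of 5 pituitary markers 4 were listed, at 158.8 CPM in obesity 2 and 7.42 to 74.2 in the other libraries, and of 3 choroid plexus markers 1, at 82.2 CPM in obesity 4 and 0 to 1.29 in the others. The part of these cells in the results was not tested. Control 2 and obesity 2 were the most alike of the 28 pairs of libraries. In tissue, fewer cells of a type and less RNA per cell cannot be told apart.

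Natural antisense transcripts are RNAs made from the strand opposite to a gene. They can come from a neighbouring gene that runs into the locus, from a promoter that fires in both directions, or from a promoter of their own, and many are noncoding. Some are well known for silencing or stabilising the gene they cover, and the paternally expressed RNA that runs through Ube3a in neurons is a classic case. In mitochondria both strands of the genome are transcribed over their full length, while nearly all protein-coding genes lie on the same strand. A 3′ end method shows where such an RNA ends, but not where it started.

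Minor-strand sites were mostly small. They held 30 to 3884 reads over the 8 libraries, with a median of 50, against a median of 58 at the major-strand sites of the same genes. The lowest total of any site in the table was 30 reads, so an end used less than that had no chance to be listed. In sum, minor-strand sites held 277638 reads, which was 2.42% of all gene-assigned reads and 6.60% of the reads of their own genes. Only 49 sites reached 500 reads. They were also narrower, with a median width of 9 bp against 13 bp, and 34.9% were 5 bp wide or less against 23.1% of the major-strand sites. Reads were present in all 8 libraries at 50.8% of the minor-strand sites and at 55.4% of the major-strand sites.

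Most genes had a single such site: 1317 genes had 1, 317 had 2 and 241 had 3 or more. Genes with minor-strand sites were more highly read on their major strand than the remaining genes, with a median of 555 against 190 reads, and had a median of 5 against 2 major-strand sites. The share of genes with a minor-strand site was 4.02%, 11.5%, 17.2% and 28.5% in 4 classes of equal size, from the lowest to the highest major-strand reads. The rule admits a gene only if its major-strand sum exceeds a minor-strand sum, which is at least the lowest total of a listed site. Genes with few major-strand reads could therefore hardly enter, so the differences in reads and in these shares are partly built in. The size of that part was not tested, nor was the part of the rule in the number of major-strand sites. Protein-coding genes held 97.2% of the minor-strand sites and lncRNA genes 2.27%.

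Within their genes, 1832 minor-strand sites (59.5%) lay between the first and the last major-strand site and held 67.7% of the minor-strand reads. A further 767 sites lay before the first major-strand site, at a median distance of 7247 bp, and 479 beyond the last, at a median of 11818 bp. Only 40 overlapped a site on the opposite strand, while 20.1% were within 1 kb of one, compared with 3.81% of the major-strand sites. By the rule, every minor-strand site has major-strand sites of its own gene on the opposite strand. The major-strand sites are also the more numerous, so this difference is partly built in. A site assigned to another gene on the same strand lay within 10 kb of 369 of them.

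Whether the minor strand is the antisense strand was checked against the orientation of genes in RefSeq. The annotation at hand was for GRCr8, another build than the Rnor_6.0 of the files, so only the strand of each gene and its neighbours were used. Of 1453 matched genes, 1189 (81.8%) were placed by RefSeq on the major strand and 264 (18.2%) on the minor strand. Genes with reads on 1 strand were placed on that strand in 89.9% of 7328 cases. Chromosomes 6, 9, 17, 19, 20 and X held runs of genes whose orientation differed, and without them the figures were 84.5% and 91.8%. The mismatch grew with the balance of the strands, from 5.78% of genes whose minor strand held up to 5% of the reads to 40.4% of those with 40 to 50%. The label "antisense" was therefore not borne out at every site, and 543 sites lay on the strand that RefSeq gives to their gene, against 1794 on the opposite strand and 741 in unmatched genes.

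**Figure D1:**
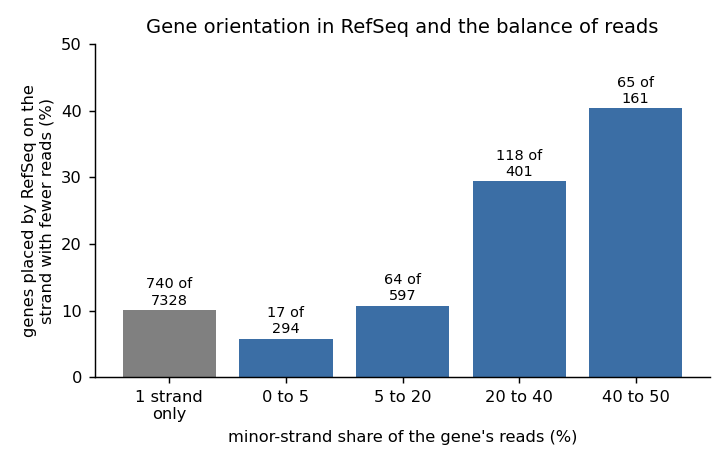
Percentage of genes that RefSeq places on the strand with fewer reads (y axis), by the share of the gene's reads on its minor strand (x axis, in percent); the grey bar gives genes with reads on 1 strand that RefSeq places on the other. The bars rise from 5.78% to 40.4% across the 4 classes of genes read on both strands, and the numbers above them give the genes.

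An overlapping RefSeq gene on the opposite strand was found for 43.9% of the matched genes with minor-strand sites and for 29.1% of genes read on 1 strand. Their genes were also longer, with a median of 72.3 kb against 26.2 kb, and the part of length in this difference was not tested. At 87 sites in 52 genes, the nearest gene on the same strand lay within 10 kb and was also one that RefSeq places across the host gene. These sites held 7140 reads, or 2.57% of the minor-strand reads.

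The 3 best-read examples of this kind were singled out after their values were seen. In Hectd4, which encodes a HECT-type ubiquitin ligase, a plus-strand site at chr12:40713410-40713447 (Rnor_6.0) lay 3986 bp from a site of Trafd1. It held 757 reads, with 192, 110, 62 and 112 in controls 1 to 4 and 57, 38, 116 and 70 in obesity 1 to 4. In Smarcd3, a subunit of SWI/SNF chromatin remodelling complexes, a minus-strand site 1559 bp from a site of Chpf2 held 457 reads. In Pea15, which encodes an astrocyte-enriched phosphoprotein, a plus-strand site 1263 bp from a site of Dcaf8 held 315 reads, of which 200 were in obesity 3. The groups overlapped at all 3 sites. Among the next was a plus-strand site of Rnf214, 2326 bp from a site of Bace1, which encodes the beta-secretase that cuts the amyloid precursor and is itself known for an antisense RNA.

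The 10 sites with the most reads held 7.74% of all minor-strand reads and lay in 9 genes. The largest was in Aplp1, an amyloid precursor-like protein of neurons, at chr1:88900531-88900553 on the plus strand, between the gene's major-strand sites. It held 155, 1057, 209 and 162 reads in controls 1 to 4 and 384, 286, 1074 and 557 in obesity 1 to 4, against 10385 major-strand reads in all. Control 2 and obesity 3 were high, and the groups overlapped. On the log2 scale, obesity against control, the site differed by 0.41 (SE 0.56). This value rested on single libraries, with 1.44 without control 2 and 0.02 without obesity 3.

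Dpp6, an auxiliary subunit of Kv4 potassium channels, had the next site, at chr4:4022003-4022033 on the plus strand, with 3461 reads. Controls 1 to 4 held 191, 446, 175 and 233 reads and obesity 1 to 4 held 1185, 204, 692 and 335, so that obesity 1 stood highest and obesity 2 within the controls. The log2 fold change was 1.06 (SE 0.45), at an unadjusted p of 0.0331 and an adjusted p of 1 in edgeR's quasi-likelihood test, and it was 0.48 without obesity 1. A like profile was seen at Ptprs, a receptor tyrosine phosphatase of axons and synapses, at chr9:10631088-10631091. RefSeq places Ptprs on the strand of this site, but on a chromosome with runs of changed orientation. Its site held 86, 135, 99 and 56 reads in controls and 378, 69, 495 and 90 in obesity, and its log2 fold change was 1.26 (SE 0.52), or 0.82 without obesity 3.

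Scn2a, the voltage-gated sodium channel Nav1.2, held both the third and the fourth of these sites. RefSeq places Scn2a on their strand, and the gene had 18 minor-strand sites with 6174 reads against 1 major-strand site with 8382 reads. The minor-strand sum was 850, 981, 684 and 818 reads in controls and 599, 815, 711 and 716 in obesity. The single site on the other strand ranged from 372 to 2636 reads. By the RefSeq placement, which is of another build, the rule had here put the label "antisense" on sites that lie on the gene's own strand.

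The remaining sites of the 10 were in Cyfip2, a subunit of the actin-regulating WAVE complex, the noncoding RNA RGD1566401, Frmd5, which encodes a FERM-domain protein, Bin1, a membrane-bending protein, and mitochondrial ND5. At Bin1 the reads were 141, 133, 95 and 129 in controls and 142, 98, 459 and 243 in obesity. RGD1566401 had 123, 151, 36 and 163 reads in controls and 581, 90, 356 and 252 in obesity at a site where 526048 reads of the gene lay on the other strand. At Frmd5 the reads were 139, 150, 94 and 125 in controls and 291, 91, 447 and 261 in obesity. At all 3, obesity 2 lay inside the control range or just below it in CPM, and no adjusted p among the 10 sites fell under 0.1. None of the 10 had an unadjusted p under 0.01 in edgeR, while with the replicate block 4 did, the sites of RGD1566401 (0.00840), Frmd5 (0.00779) and Ptprs (0.00807) and the second of Scn2a (0.00544).

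Mitochondrial genes had 36 minor-strand sites in 11 genes, and 32 of them lay on the minus strand, opposite to the strand that codes for most mitochondrial proteins. ND5, a subunit of complex I next to the oppositely oriented ND6, held 10 of the sites and 2791 of the 6953 reads. ND2 held 1176 reads and CYTB 783. The 4 plus-strand sites belonged to ATP8 and ND4L, whose few reads lay mostly on the other strand (282 and 149 reads), so that in them the rule picked the coding strand. Minor-strand reads were 0.917%, 1.27%, 0.698% and 0.773% of mitochondrial gene reads in controls 1 to 4 and 1.11%, 0.945%, 0.928% and 0.978% in obesity 1 to 4. The groups overlapped, the median log2 fold change of the 36 sites was -0.12, and none had an unadjusted p under 0.01.

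Genes with many minor-strand sites were led by Xkr4, of the XK-related family of membrane proteins, with 25 sites over 104 kb, 2479 minor-strand and 4328 major-strand reads. In it the values of the strands were close: the minor-strand sum had a log2 fold change of 0.33 (SE 0.20) and the major-strand sum of 0.37 (SE 0.19). Lrrc4c, a synaptic netrin-G ligand, followed with 21 sites, and Scn2a and Zfhx2, a zinc finger homeobox gene, with 18 each. Zfhx2 is crossed by Thtpa on the opposite strand in RefSeq. Sox5, a transcription factor, had 16 sites with 111, 83, 61 and 67 reads in controls and 181, 95, 116 and 145 in obesity. Its 3 major-strand sites held 227, 366, 644 and 388 reads in controls and 179, 399, 231 and 156 in obesity. The log2 fold changes of Sox5 were 0.68 (SE 0.28) on the minor and -0.81 (SE 0.40) on the major strand, and neither passed the adjusted threshold. None of the minor-strand sums of the 5 genes had an unadjusted p under 0.01 in edgeR without the block, and with it Sox5 had 0.00603.

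The 5 genes below stood closest to balance, where a few reads decide which strand is called minor. These were Cystm1 with 176 and 177 reads, Usp12, a deubiquitinase, with 87 and 88, Pik3cb, a catalytic PI3-kinase subunit, with 57 and 58, Stk11, the energy-sensing kinase LKB1, with 160 and 163, and Nt5dc1 with 104 and 106. In 200 genes the minor strand held over 40% of the reads, and in 47 genes under 1%. The median was 13.5% over the genes, with quartiles of 5.79% and 28.1%.

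The minor-strand share of gene-assigned reads was 2.04%, 2.31%, 1.73% and 2.16% in controls 1 to 4 and 3.45%, 1.90%, 3.06% and 2.49% in obesity 1 to 4. Obesity 1, 3 and 4 were above every control, while obesity 2 lay within the controls. The group means were 2.06% ± 0.243 and 2.72% ± 0.675 (SD, n = 4), and the difference of 0.664 percentage points had a p of 0.143 in an exact two-sided permutation test, whose smallest possible p was 0.0286. With same-numbered libraries as pairs, 3 of 4 pairs were higher in obesity and the exact p over sign changes was 0.375, where 0.125 was the smallest possible. The difference was 0.423 points without obesity 1 (exact p = 0.286) and 0.938 points without obesity 2 (exact p = 0.0571), where 0.0571 is the smallest p that 3 against 4 libraries allow.

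When each gene counted equally, the mean minor-strand percentage was 17.3, 17.4, 15.8 and 18.0 in controls 1 to 4 and 20.7, 16.9, 19.6 and 17.9 in obesity 1 to 4. The means were 17.1% ± 0.958 and 18.8% ± 1.74 (SD, n = 4; exact permutation p = 0.229). Of 1858 genes with reads in every library, 29 had a higher percentage in each obesity library than in any control, and 19 a lower one in each. The percentage exists only for genes read on both strands, so no share over all genes can stand beside these counts. With 70 arrangements of the labels, some such genes occur without any difference between the groups, and the counts are not read as a result.

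Of the 0.664 points, 0.587 lay at sites between the major-strand sites. Controls held 1.32% ± 0.215 of gene-assigned reads there, and obesity libraries 1.91% ± 0.590 (SD, n = 4), with an exact permutation p of 0.143. Sites before the first major-strand site held 0.448% ± 0.0159 and 0.509% ± 0.0666 (exact permutation p = 0.171). Those beyond the last held 0.292% ± 0.0134 and 0.307% ± 0.0226 (exact permutation p = 0.286). Sites that RefSeq places opposite to their gene held 1.22% ± 0.197 and 1.72% ± 0.523 (exact permutation p = 0.143), and those on the gene's own strand 0.362% ± 0.00298 and 0.398% ± 0.0451 (exact permutation p = 0.314). Of 8 such values compared between the groups, all had an adjusted p of 0.314.

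**Figure D2:**
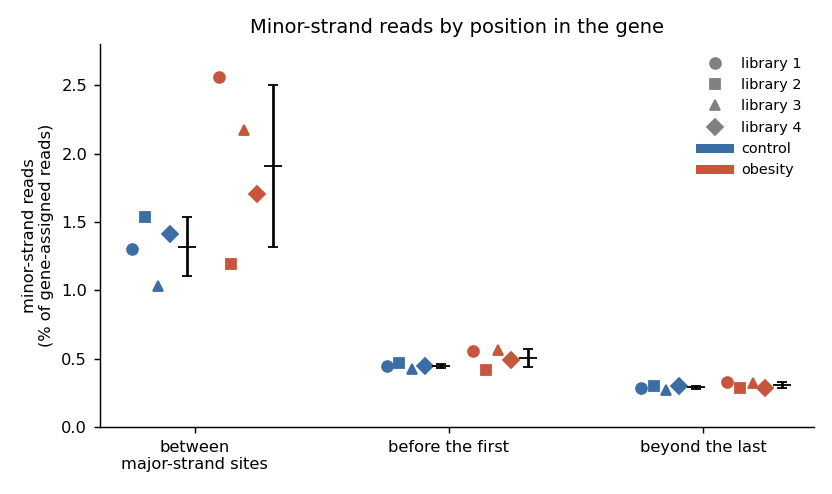
Minor-strand reads as a percentage of gene-assigned reads (y axis), by position relative to the major-strand sites of the gene (x axis); each symbol is a library, the shape gives its number, and the black bars give the mean ± SD of 4 libraries. Between the major-strand sites, obesity 1, 3 and 4 lie above every control and obesity 2 among the controls.

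Other features of the libraries moved with these shares. Mitochondrial sites took 5.32%, 5.94%, 8.27% and 6.23% of all reads in controls 1 to 4 and 4.29%, 6.99%, 3.85% and 4.34% in obesity 1 to 4, so the 3 libraries with the highest minor-strand shares had the lowest mitochondrial shares. Sites without a gene took 11.2% to 15.2% of reads in controls and 11.7% to 18.5% in obesity, highest in obesity 1. Their part in the result was not tested.

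Single sites were compared between the groups by edgeR's quasi-likelihood test over all 73922 sites, with Benjamini-Hochberg adjustment. No minor-strand site had an adjusted p under 0.1, a threshold passed by 1 site in the table (0.00135%). At an unadjusted p under 0.01, 25 minor-strand sites were higher and 2 lower in obesity. This was 0.812% and 0.0650% of the 3078 sites, beside 0.289% higher and 0.212% lower over all sites. At an unadjusted p under 0.05 the counts were 140 and 19, beside 1.72% and 1.41% of all sites. Groups did not overlap in CPM at 55 higher and 32 lower sites, or 1.79% and 1.04%, beside 1.43% and 1.69% over all sites.

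With the replicate number as a block, 69 of the 3078 minor-strand sites were higher and 10 lower at an unadjusted p under 0.01. Over all sites the shares were 0.702% and 0.940%. The 27 minor-strand sites of the fit without the block were among those called with it. An adjusted p under 0.1 was then reached by 4 sites in the table (0.00541%), of which 1 was a minor-strand site, in Map7d1. The total of 27, of 371 over all sites, was 16 of 271 without control 1, 11 of 304 without control 3, 16 of 278 without control 4, 66 of 806 without obesity 2 and 42 of 336 without obesity 4, all in the fit with no block.

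More minor-strand sites had fold changes above 0 than below. The median log2 fold change was 0.27, against 0.12 at the major-strand sites of the same genes and 0.05 over all sites, and 62.3% were above 0, against 56.5% and 52.4%. The median was 0.38 for sites between the major-strand sites, 0.06 for those before the first and 0.14 for those beyond the last. It was 0.34 for sites opposite to their gene in RefSeq and 0.04 for those on its own strand. Sites 5 bp wide or less had a median of 0.46, beside 0.23 for major-strand sites of that width. Without obesity 3 the median of all minor-strand sites was 0.16, and without obesity 1 it was 0.17. The highest of the 8 CPM values was in obesity 1 at 21.7% of minor-strand sites and in obesity 3 at 19.0%, compared with 16.7% and 13.9% of the major-strand sites of the same genes. In every control, 10 of the 3078 minor-strand sites were at 0 reads, and none was at 0 in every obesity library, beside 39 and 14 of all 73922 sites. Such sites were listed only through their reads in the other group, so these counts are not read as a result.

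**Figure D3:**
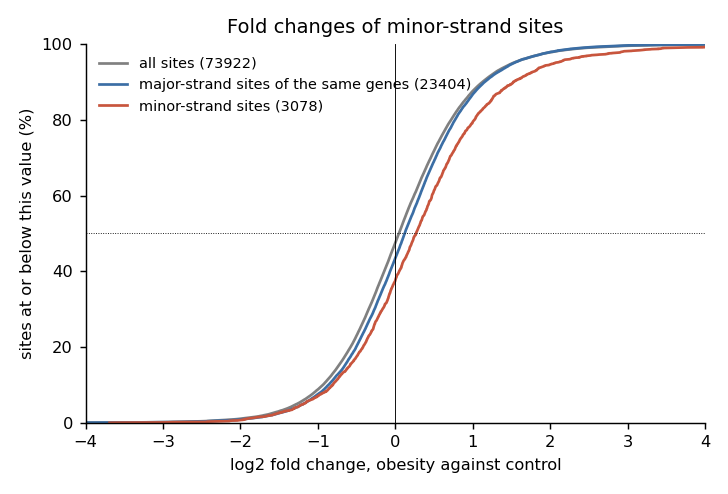
Percentage of sites (y axis) at or below each log2 fold change, obesity against control (x axis), for minor-strand sites, the major-strand sites of the same genes, and all sites. The curve of minor-strand sites lies to the right of the others above its lower end, and crosses 50% at 0.27.

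Of the 25 higher sites, 20 lay between major-strand sites, as did 59.5% of all minor-strand sites. By RefSeq, 17 were opposite to their gene, 1 was on its strand and 7 were unmatched, beside 1794, 543 and 741 of all 3078. The highest library was obesity 1 at 15 of them, obesity 3 at 7 and obesity 4 at 3. Obesity 2 was above every control at 14. Of the 27 sites, 6 higher and 1 lower had at least 10 reads on average and groups that did not overlap, and the first 5 of the 6 by p are described here with the lower.

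The smallest p was at Rgs10, a regulator that speeds the shut-off of G protein signals, at chr1:199792207-199792220 on the plus strand. The site held 3, 4, 5 and 2 reads in controls and 40, 20, 28 and 32 in obesity, and every obesity library stood well above the controls. In CPM this was 2.24 ± 1.03 against 17.2 ± 4.11 (SD, n = 4). On the log2 scale the groups differed by 2.91 (SE 0.57), and edgeR gave an unadjusted p of 0.000136 and an adjusted p of 1. With the block the adjusted p was 0.145, and in DESeq2's Wald test 0.0217. On the major strand the gene held 54, 12, 11 and 12 reads in controls and 17, 5, 19 and 11 in obesity, with no major-strand site nearer than 10136 bp. The gene was near balance, with 134 minor- and 141 major-strand reads, so few reads decided which strand was called minor. The minor strand held 5.26% to 31.25% of its reads in controls and 59.6% to 80% in obesity.

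At Rnf150, a RING-finger ubiquitin ligase gene, the site at chr19:24207776-24207777 held 0, 5, 3 and 3 reads in controls and 34, 11, 52 and 21 in obesity. All obesity libraries were above the controls. The log2 fold change was 3.17 (SE 0.76), and DESeq2's Wald test gave an adjusted p of 0.0960 where edgeR gave 1. RefSeq places Rnf150 on the strand of this site, but on a chromosome with runs of changed orientation. The major-strand sum ranged from 30 to 61 reads in controls and from 47 to 70 in obesity.

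Elmsan1, a subunit of a histone deacetylase complex, had its site 2139 bp beyond the last major-strand site, at chr6:107634720-107634734. It held 2, 3, 5 and 12 reads in controls and 47, 12, 51 and 48 in obesity, where obesity 2 equalled control 4 in reads and barely passed it in CPM (8.31 against 7.91). Its change was 2.60 (SE 0.65) on the log2 scale. The minor strand held 45% of the reads of Elmsan1, so this gene too was near balance. The nearest site on the same strand, of Dnal1, lay 9451 bp away.

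In Ctnna2, which encodes the neuronal alpha-catenin that ties cadherins to actin, the site at chr4:108513258-108513279 held 9, 22, 5 and 8 reads in controls and 51, 19, 61 and 26 in obesity. Groups differed by 1.70 (SE 0.54) on the log2 scale. RefSeq places Lrrtm1, a synaptic adhesion gene, across Ctnna2 on this strand, but the nearest Lrrtm1 site was 209507 bp away. The minor-strand site was 1.72% of the reads of Ctnna2, which had 101 major-strand sites.

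At Stx5, a SNARE protein of the Golgi, the site at chr1:224943699-224943720 lay 860 bp before the first major-strand site and held 3, 3, 4 and 4 reads in controls and 8, 9, 23 and 32 in obesity. The log2 fold change was 2.15 (SE 0.69). The lower site was in Adar, the enzyme that edits adenosine to inosine in RNA, at chr2:189085446-189085473 on the minus strand. It held 43, 33, 41 and 43 reads in controls and 17, 13, 1 and 14 in obesity, or a change of -1.91 (SE 0.61) on the log2 scale. This site lay 1 bp from the nearest site on the opposite strand, and the nearest same-strand site of another gene, Chrnb2, was 1423 bp away. Adar was not matched in RefSeq.

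**Figure D4:**
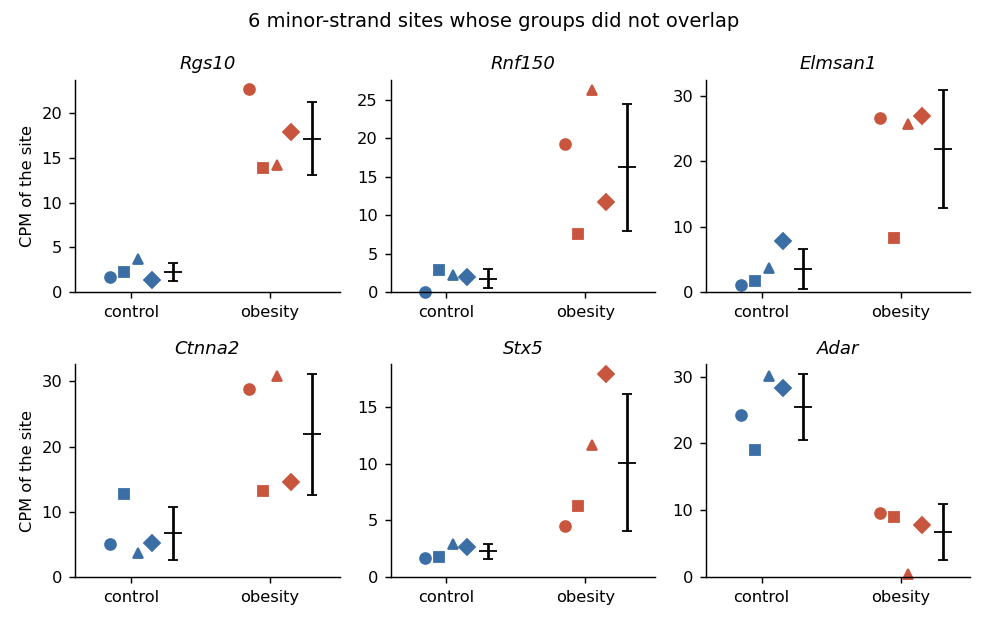
CPM (y axis) of 6 of the sites with an unadjusted p under 0.01, at least 10 reads on average and no overlap of the groups (the first 5 higher by p and the lower), in 4 control and 4 obesity libraries (x axis); symbols are libraries, with one shape for each number, and black bars give the mean ± SD. Rgs10, Rnf150, Elmsan1, Ctnna2 and Stx5 were higher and Adar lower in every obesity library.

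Map7d1, a microtubule-associated protein gene, had the site with an adjusted p of 0.0768 under the block, at chr5:144257859-144257868. Its reads were 46, 0, 15 and 10 in controls and 501, 0, 104 and 26 in obesity, so that library 2 of both groups was at 0 and obesity 1 held most of the reads. Without the block the adjusted p was 1. The log2 fold change was 3.0 (SE 1.5), and 1.01 without obesity 1.

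Site usage, which sets a site against the rest of its gene, was tested with edgeR's diffSpliceDGE over 61934 sites. An adjusted p under 0.1 was reached by 1 site in the table (0.00161%), and it was a minor-strand site, but without obesity 1 no site reached it. At an unadjusted p under 0.01, 54 of the 3078 minor-strand sites were higher and 3 lower in usage, beside 0.315% and 0.105% of all sites tested. With the block 50 were higher and 6 lower, beside 0.534% and 0.354%. The adjusted threshold was passed by 5 sites in the table under the block (0.00807%), 1 of them a minor-strand site. Without obesity 2 and without the block, 8 minor-strand sites were among 16 that passed. The total of 57, of 260 over all sites, was 26 of 344 without obesity 1 and 90 of 621 without obesity 2. Only Rgs10 (log2 1.58, unadjusted p = 0.00333) and Rnf150 (log2 1.74, unadjusted p = 0.00401) also had at least 10 reads on average and groups without overlap in CPM, and both had an adjusted p of 1 from edgeR.

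Both strands of each gene were then set side by side. In a table of the major- and minor-strand sums of all genes, 31 of 1875 minor-strand sums were higher and 2 lower at an unadjusted p under 0.01. Over all 14127 sums the shares were 0.580% and 0.290%. None passed the adjusted threshold (0% of all sums, with the block also 0%). With the block the counts were 51 and 3, beside 1.41% and 1.70%. The total of 33, of 123 over all sums, was 20 of 86 without control 1, 11 of 65 without control 3, 17 of 102 without obesity 1 and 79 of 380 without obesity 2. DESeq2's Wald test gave 4 minor-strand sums an adjusted p under 0.1, of 11 that passed among all 14127 sums. Rgs10, Rnf150 and Elmsan1 were among the 4. For the same 1875 genes, 17 major-strand sums were higher and 6 lower at that p, and no gene passed it on both strands.

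The median log2 fold change was 0.36 for the minor-strand and 0.10 for the major-strand sums, and 68.0% and 60.1% were above 0. In 1167 genes (62.2%) the minor-strand value was the larger. Across the genes, which share libraries and are not independent, the values of the strands had a Pearson correlation of 0.026. Rgs10 had 2.98 (SE 0.55) on the minor and -0.88 (SE 0.61) on the major strand, and Adar -1.85 (SE 0.57) and -0.23 (SE 0.24).

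**Figure D5:**
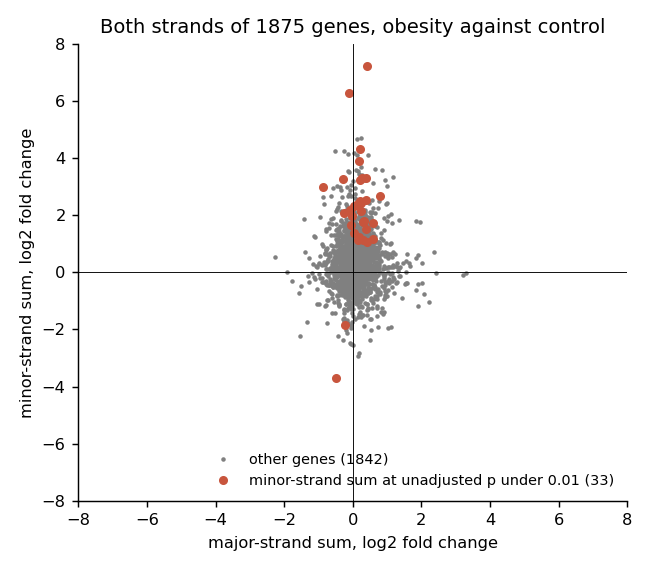
Log2 fold change, obesity against control, of the minor-strand sum (y axis) against that of the major-strand sum (x axis) for 1875 genes; the 33 filled points had a minor-strand unadjusted p under 0.01. Points spread further along the y axis, and 31 of the 33 lie above 0 on it.

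Genes were also grouped by lists. Of 23 listed genes for hypothalamic peptides and feeding present in the table, only 2 had a minor-strand site (8.70%), compared with 15.3% of all genes. Agrp, the appetite-stimulating peptide of the arcuate nucleus, held 10, 9, 8 and 14 minor-strand reads in controls and 7, 16, 6 and 0 in obesity, beside 135 major-strand reads. Sim1, a transcription factor of the paraventricular nucleus, held 4, 10, 8 and 13 in controls and 6, 17, 11 and 12 in obesity. RefSeq places both genes on the minor strand, on chromosomes with runs of changed orientation. Neither sum differed at an unadjusted p under 0.01.

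Of 22 genes known in mammals for an antisense RNA, 7 had minor-strand sites (31.8%), compared with 15.3% of all genes. In the class with the most major-strand reads 28.5% of genes had such a site, and the part of read number was not tested. They were Mapt, Ube3a, Htt, Bace1, Thra, Zeb2 and Igf2r. Mapt, the microtubule protein tau, held 103, 144, 59 and 58 minor-strand reads in controls and 184, 112, 206 and 75 in obesity. In Ube3a, the ubiquitin ligase of Angelman syndrome, 907 reads at 6 sites lay on the minor strand and 23451 reads at 115 sites on the major strand. RefSeq places Ube3a on the minor strand, in another build than that of the sites. By that placement its abundant sites ran opposite to the gene. The minor strand of Ube3a held 124, 127, 132 and 121 reads in controls and 65, 78, 151 and 109 in obesity, and the groups overlapped. Htt, the huntingtin gene, was also placed on its minor strand, with 539 reads at 6 sites against 776 reads at 1 site, of which 430 were in obesity 3. RefSeq also places Igf2r on its minor strand, which held 41 reads. No minor-strand sum of the list had an unadjusted p under 0.01. Its median log2 fold change was 0.18.

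Synapse genes had minor-strand sites in 15 of 30 cases (50%), compared with 15.3% of all genes. In the class of genes with the most major-strand reads the share was 28.5%, and the part of read number was not tested. Shank3, a scaffold of the postsynaptic density, held 159, 151, 76 and 153 minor-strand reads in controls and 190, 128, 196 and 173 in obesity, beside 2707 major-strand reads. The presynaptic adhesion gene Nrxn3 held 586 minor-strand reads, or 2.89% of its reads, with 52, 93, 20 and 75 in controls and 93, 58, 64 and 131 in obesity. The median log2 fold change of the 15 minor-strand sums was 0.48, beside 0.36 over all minor-strand sums and 0.03 for the major strand of the same 15 genes, 11 of the 15 were above 0, and none had an unadjusted p under 0.01. Of 17 energy metabolism genes, only Idh3a, a subunit of isocitrate dehydrogenase, had a minor-strand site (5.88%), with 30 reads and no change at an unadjusted p under 0.01.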

How the data were processed

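Counts per site were used as deposited by the authors: raw reads at 3′ end sites of polyadenylated RNA, with a chromosome, strand, start, end and gene for each. The submitters' processing notes name Bowtie2 2.2.3 and Rnor_6.0. The clustering of reads into sites, the gene assignment and the read minimum are not given in the sources used here. A line without a site, which held a column total, was dropped, and 273 sites with only a mark as symbol were taken as without a gene. No sequence around the sites was used here, so whether each site is a true 3′ end of an RNA was not tested.

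Libraries were grouped by their labels, 4 in each group, at 1417531 to 1957726 reads. TMM factors, glmQLFit with robust estimation and diffSpliceDGE (edgeR 4.0.16 in R 4.3.3) were run over all sites or all gene-strand sums, checked on simulated counts, with thresholds of 0.1 for adjusted and 0.01 for unadjusted p. DESeq2 1.42.0 was an alternative. CPM of sites and sums used library sizes scaled by the TMM factors, while CPM of the marker genes used the total reads of each library. Log2 fold changes are shrunken slightly by edgeR's prior count, and each SE is the log2 fold change over the root of its F statistic. Library values were compared by exact permutation over 70 arrangements (scipy 1.17.1). Libraries with the same label number deviated together from their group means (correlations of 0.268 to 0.382, against -0.200 to -0.039 for different numbers), so the number was used as a block in an alternative; the labels do not say what it marks. Control and obesity libraries were separate rats, and the p-values measure the spread between them.

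Named sites and genes were the 10 minor-strand sites with the most reads; those with at least 10 normalized reads on average, an unadjusted p under 0.01 and no overlap (up to 5 higher and 5 lower, or 3 and 3 for usage and sums); any with an adjusted p under 0.1; the 5 genes with the most minor-strand sites; the 5 closest to 50%; and up to 3 of each list. The sites and lists were chosen with earlier results of these data known. RefSeq gave orientation for 8783 of 12255 genes by symbol and chromosome. Some sites and genes that these rules pick are not reported here. Coordinates are those of the files.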

Additional observations from a re-analysis of the deposited data

Results flagged for a closer look

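In 92 checks of groups of 4 libraries, Dixon's test set 7 single values apart, where chance gives about 1 in 20. Control 2 held 608 CPM at the Aplp1 site, where the other controls held 87.3 to 153. At the Elmsan1 site obesity 2 held 8.31 CPM and the other obesity libraries 25.8 to 26.9. The minor-strand percentage of Zfhx2 was 51.7 in obesity 2, against 34.9 to 37.1 in the other obesity libraries. Sim1 stood at 81.0% in obesity 2, against 27.3% to 28.9%, on few reads. Cystm1 stood at 75% in control 1, against 39.1% to 43.1% in the other controls. Ube3a was at 5.33% in control 3, against 3.68% to 3.91%, and Idh3a at 14.04% in obesity 3, against 0%. Obesity 2 gave 3 of the 7 values.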

How the results depend on the processing

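The difference in the minor-strand share and in the mean percentage over genes kept its direction under each alternative, with ranges of 0.423 to 0.938 and of 0.990 to 2.28 percentage points when a library was left out. Neither those alternatives (smallest exact permutation p of 0.0571) nor the replicate block (0.125) could pass 0.05, and the block leaves the differences of 0.664 and 1.64 as they are by construction. The alternatives with 8 libraries gave exact p-values of 0.143 for the share and of 0.200 to 0.229 for the percentage.

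At an unadjusted p under 0.01, DESeq2's Wald test called 49 minor-strand sites (44 higher, 5 lower; 426 and 258 of all 73922 sites), the fit with the replicate block 79 (69 higher, 10 lower) and that with filterByExpr 9 (9 higher, 0 lower; 98 and 84 of all 25720 sites kept), which kept 799 minor-strand sites. Counted in sites opposite to their gene in RefSeq, an alternative chosen after seeing the data, there were 17 (0 lower). Leaving out a library gave 11 to 66 (10 to 60 higher, 0 to 6 lower).

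Usage calls numbered 11 with filterByExpr (10 higher, 1 lower; 42 and 18 of all 19343 sites kept), 6 were lower with the block, and 26 to 90 were left when a library was left out (18 to 70 higher, 1 to 20 lower). Minor-strand sums numbered 53 with DESeq2's Wald test (49 higher, 4 lower; 127 and 70 of all 14127 sums), 54 with the replicate block (51 higher), 18 with filterByExpr (17 higher, 1 lower; 55 and 40 of all 10096 sums kept) and 11 to 79 when a library was left out (10 to 76 higher, 0 to 6 lower).

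The log2 fold change of the ND5 site, -0.15, ranged from -0.48 to 0.11 when a library was left out, and was above 0 without obesity 3 (0.11) and without obesity 4 (0.0017). At an adjusted p under 0.1, the block changed the call of Map7d1 alone among the named sites and genes. At an unadjusted p under 0.01 in site counts and sums it also added the sites of RGD1566401, Frmd5, Ptprs and Scn2a and the Sox5 sum. The cause of these changes was not tested. A site with 30 reads over 8 libraries has few reads in each, so that most minor-strand sites could show only large changes, and the read minimum limits which sites could be seen.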

Other observations

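Among the 25 higher minor-strand sites, 6 had at least 10 reads on average and no overlap of the groups, and 5 are described above. The last of the 6 by p was in App, the amyloid precursor protein gene, and is given here after its values were seen. It held 192 reads, with a log2 fold change of 1.61 and an unadjusted p of 0.00994 in edgeR, and each obesity library was above all controls in CPM.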
